A study of Mus musculus with 76 samples.

Results

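The astrocyte and gliogenic genes described here were 10 genes taken by name from the 56923 gene identifiers counted in each RNA library. They were the astrocyte genes Gfap, Aqp4, Aldh1l1, S100b, Slc1a2 and Slc1a3, and the transcription factor genes Sox9, Nfia, Nfib and Nfix. Diencephalon was taken on embryonic days E11.5 and E17.5 from embryos of homozygous wild type crosses and of homozygous hs754-humanized crosses, all on the C57BL/6J background. In the hs754-humanized line, human sequence that holds the enhancer hs754 takes the place of the matching mouse sequence. Each sample pooled 6 embryos at E11.5 or 3 embryos at E17.5 of the same litter, so a sample stood for a litter, and no drug, transgene or Cre was involved. RNA-seq had 4 samples per stage and genotype, and chromatin immunoprecipitation with sequencing (ChIP-seq) had 2 per mark and genotype at the earlier stage and 3 at the later.

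Astrocytes arise in the embryonic brain from radial glia, the dividing progenitors that first make neurons. The change of these progenitors from making neurons to making glia runs through Notch and BMP signals, through cytokines that act by JAK and STAT proteins, and through transcription factors, among which Sox9 and the nuclear factor I (NFI) proteins are central. NFI proteins bind DNA as dimers and include Nfic beside the 3 members above. In mature astrocytes, Gfap forms intermediate filaments, Aqp4 is the water channel of the endfeet, Aldh1l1 is a folate enzyme, S100b binds calcium, and Slc1a2 and Slc1a3 take up glutamate.

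The RNA libraries held 16414369 to 24272569 counts on genes. Levels are given as CPM, which are counts relative to the library size scaled by edgeR's TMM factor, and, wherever genes are compared with each other, as RPKM, which are CPM divided by the exonic length of the gene. The library of wild type E17.5 replicate 1 stood apart from the rest. Its log2 CPM values had a mean correlation of 0.942 with the 3 other samples of its group, whose own means ran from 0.973 to 0.977. Of 20234 genes tested over all samples, 38.5% had a higher CPM in this library than in any of the other 7 E17.5 libraries and 38.8% had a lower one. Gfap, Aldh1l1, Sox9 and Nfix lay above all 7 others there, Aqp4, Slc1a2, Nfia and Nfib lay below them, and S100b and Slc1a3 lay within their range. Its difference from the other 7 moved with base composition. From the fifth of genes with the lowest exonic GC content to the fifth with the highest, the median log2 difference was -0.97, -0.47, 0.02, 0.49 and 0.80. Nfix, with an exonic GC content of 58.1%, was 2.67 times the median of the other 7 libraries, and Aqp4, with 42.1%, was 0.240 times. The part of base composition in the values of the members was not tested. Marker genes of other cells stood apart there as well. The summed level of the red blood cell genes was 984 CPM against 234 to 506 CPM in the other 7, of the meningeal genes 491 against 232 to 313 CPM, of the microglia genes 111 against 53.2 to 66.1 CPM and of the ependymal genes 56.6 against 21.8 to 28.96 CPM. The oligodendrocyte lineage and endothelial lists also lay above the other 7, while the neuronal, choroid plexus and diencephalon lists lay within their range. The 20 other astrocyte genes described below summed to 2892 CPM there, against 1655 to 2059 CPM in the other 7. Of these, 14 lay above all 7 and 3 below. The lists of cycling cells, radial glia and other gliogenic transcription factors lay below the other 7, and that of gliogenic signalling within their range. The part of these genes and cells in the values of this library was not tested. Below, the wild type results that it moved past the test or by a clear amount are also given without it.

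Tcf7l2, a transcription factor of the thalamus and a marker of diencephalon, stood at 686 to 1328 CPM in the 8 E11.5 samples and at 1017 to 1359 CPM in the 8 E17.5 samples.

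The first comparison was of stage, E17.5 against E11.5, within each genotype. In wild type, 8 of the 10 genes rose, Sox9 fell, and Slc1a2 did not pass the test (edgeR quasi-likelihood test, adjusted p under 0.05). Over all 18583 genes tested, 55.7% were called, 29.0% higher and 26.7% lower, and the median log2 fold change was -0.01. In hs754-humanized samples, 9 rose and Sox9 fell, where 77.7% of 18781 genes were called, 38.2% higher and 39.5% lower, with a median of -0.04. The share of genes called was thus large in both genotypes. By sample values, 8 members lay wholly higher at E17.5 in wild type and 1 wholly lower, where 25.5% and 23.8% of 20234 genes did, and in hs754-humanized samples 9 and 1 did, beside 35.4% and 34.9%. Gfap, Aqp4 and S100b had too few counts at E11.5 to be tested there and entered the stage tests only through their E17.5 counts, so their place among the called genes was set by the filter and their values are given as description. Of the 7 members with enough counts at both stages, Aldh1l1, Slc1a3, Nfia, Nfib and Nfix rose and Sox9 fell in both genotypes. Slc1a2 was called in hs754-humanized samples alone. In these bulk samples, a rise from more cells of a type cannot be told apart from a rise in RNA per cell.

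**Figure D1:**
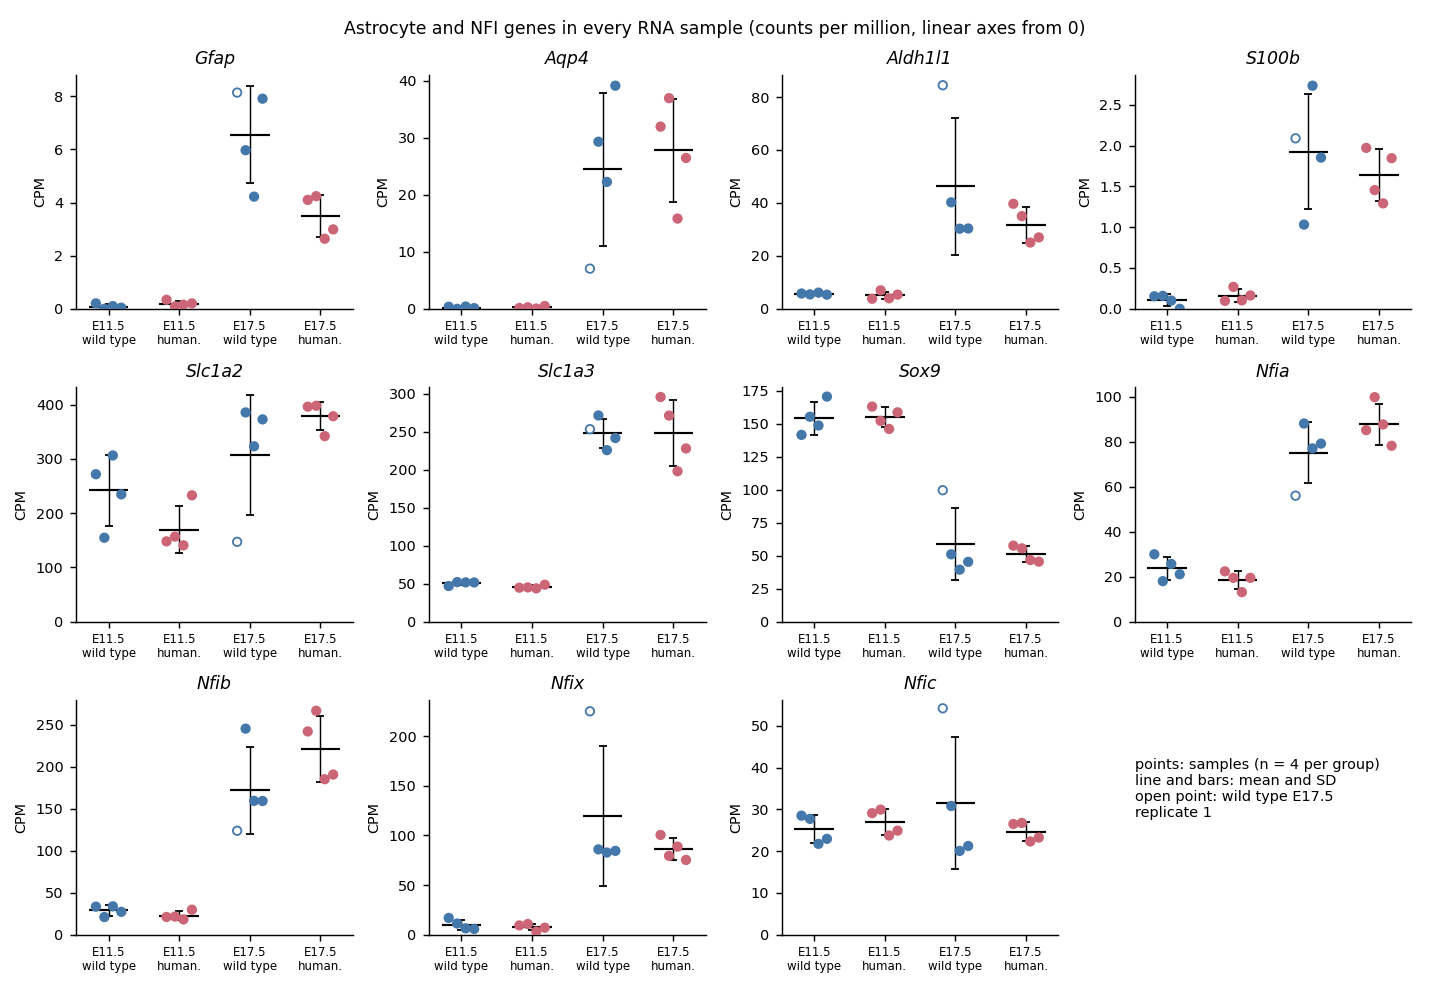
CPM (linear axes from 0) of the 10 genes and Nfic in each of the 16 RNA samples, by stage and genotype. Points are samples, horizontal lines are group means, bars are the SD (n = 4), and the open point is wild type E17.5 replicate 1. Gfap, Aqp4 and S100b lie under 1 CPM in every E11.5 sample and above 1 CPM in every E17.5 sample, and Sox9 is lower at E17.5.

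Gfap, Aqp4 and S100b were each under 1 CPM in every E11.5 sample. Gfap had 0.205, 0, 0.101 and 0.0405 CPM in the wild type E11.5 samples and 8.14, 5.97, 4.22 and 7.91 CPM at E17.5. In hs754-humanized samples it had 0.340, 0.0896, 0.155 and 0.205 CPM at E11.5 and 4.10, 4.24, 2.64 and 2.99 CPM at E17.5. Every E17.5 sample thus lay above every E11.5 sample, and 3 of the 4 wild type E17.5 samples lay above all 4 hs754-humanized ones. Summed over the group, Gfap rose from 7 to 539 counts in wild type, a ratio of 71.6 per library size (exact 95% interval 34.5 to 179). For hs754-humanized samples the rise was from 17 to 241 counts, a ratio of 16.6 (10.2 to 29.0). These intervals cover counting error only. The edgeR log2 fold change of Gfap was 6.17 (SE 0.53) in wild type, 6.04 without replicate 1 at E17.5, and 4.10 (SE 0.36) in hs754-humanized samples. Over the 8 fits that each left out 1 wild type sample, it ran from 5.81 to 6.91.

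Aqp4 had 0.358, 0, 0.404 and 0.122 CPM at E11.5 and 7.05, 29.3, 22.3 and 39.1 CPM at E17.5 in wild type. The E17.5 values of hs754-humanized samples were 32.0, 37.0, 15.8 and 26.5 CPM, against 0.146, 0.269, 0.0517 and 0.491 CPM at E11.5. The lowest E17.5 value was that of wild type replicate 1, 0.240 times the median of the other 7 libraries. Aqp4 thus went from 18 to 2053 counts in wild type, a ratio of 106 (exact 95% interval 66.9 to 179), and from 22 to 1908 counts in hs754-humanized samples, a ratio of 102 (67.0 to 163). The log2 fold changes were 6.76 (SE 0.72) and 6.74 (SE 0.42). Without replicate 1 the wild type value was 7.06.

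S100b was the least abundant of the group in counts. Its 3′ part overlaps Dip2a, a gene on the opposite strand, over 1897 bp of chromosome 10, and 96.0% to 96.5% of the strand counts of a library lay in a single strand column. Without regard to strand, S100b had 3, 3, 2 and 0 counts in the wild type E11.5 samples and 40, 19, 55 and 44 counts at E17.5. Counted on its own strand, it had 1, 0, 0 and 0 counts at E11.5 and 38, 16, 44 and 41 counts at E17.5. The E11.5 counts of hs754-humanized samples on its own strand were 2, 2, 0 and 0, and the E17.5 counts were 35, 21, 21 and 27. Of the reads in both strand columns at E11.5, 12.5% lay on the strand of S100b in wild type and 28.6% in hs754-humanized samples, where the other 9 genes had 85.7% or more on their own strand in all 4 groups. The rise of S100b was therefore larger on its own strand. The log2 fold change in wild type was 4.20 (SE 0.58) without regard to strand and 6.55 (SE 0.68) on its own strand. In hs754-humanized samples it was 3.29 (SE 0.37) and 4.88 (SE 0.55). With 1 count at E11.5, the ratio on its own strand in wild type was 129 with an exact 95% interval from 22.9 to 5150, and in hs754-humanized samples it was 30.7 (11.6 to 115).

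Aldh1l1 was already present at E11.5. It had 5.79, 5.46, 6.11 and 5.35 CPM in the wild type E11.5 samples and 84.5, 40.2, 30.3 and 30.4 CPM at E17.5. The hs754-humanized samples had 3.79, 6.99, 3.98 and 5.36 CPM at E11.5 and 39.7, 35.0, 25.0 and 26.98 CPM at E17.5. The stages did not overlap in either genotype, and the highest value was that of wild type replicate 1. The log2 fold change was 3.02 (SE 0.34, adjusted p = 3.61e-05) in wild type, 2.54 without that library, and 2.64 (SE 0.22, adjusted p = 4.53e-07) in hs754-humanized samples.

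The pair of glutamate transporters differed. Slc1a3 had 47.0, 52.1, 51.8 and 51.7 CPM in the wild type E11.5 samples and 254, 272, 226 and 242 CPM at E17.5. The hs754-humanized samples had 44.7, 45.1, 43.9 and 48.7 CPM at E11.5 and 296, 272, 198 and 228 CPM at E17.5. The samples of each group lay close together, and the 2 stages were far apart. Slc1a3 changed by a log2 value of 2.28 (SE 0.16, adjusted p = 1.37e-06) in wild type and 2.43 (SE 0.14, adjusted p = 2.15e-08) in hs754-humanized samples.

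Slc1a2 had 272, 155, 306 and 235 CPM in wild type at E11.5, and 147, 386, 323 and 373 CPM at E17.5. The hs754-humanized samples had 148, 157, 141 and 233 CPM at E11.5 and 396, 398, 342 and 378 CPM at E17.5. The wild type stages overlapped because replicate 1 at E17.5 was the lowest of all 8 wild type samples, and the other 3 E17.5 samples lay above all 4 E11.5 samples. The wild type log2 fold change was 0.33 (SE 0.31, adjusted p = 0.391) with all samples and 0.56 (SE 0.19, adjusted p = 0.0179) without replicate 1. In that fit all 10 members were called, beside 13994 of 19351 genes. In hs754-humanized samples it was 1.14 (SE 0.17, adjusted p = 5.07e-05).

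The change in the transporters showed in their ratio. Per length, Slc1a2 stood at 4.23 ± 1.21 times Slc1a3 at E11.5 in wild type (SD, n = 4) and at 3.26 ± 0.65 times in hs754-humanized samples. At E17.5 the ratio was 1.10 ± 0.39 and 1.36 ± 0.16, and it was 0.512 in wild type replicate 1 at E17.5 and 1.29 ± 0.06 over the other 3. The stages did not overlap in this ratio in either genotype.

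Sox9, which acts early in the change to glia and also in progenitors, was the single member to fall. It had 142, 155, 149 and 171 CPM in the wild type E11.5 samples and 99.6, 51.0, 39.4 and 45.3 CPM at E17.5. Among hs754-humanized samples the values were 163, 152, 146 and 159 CPM at E11.5 and 57.6, 55.6, 46.7 and 45.5 CPM at E17.5. Every E17.5 sample lay below every E11.5 sample, with wild type replicate 1 the highest at E17.5. Its log2 fold change was -1.40 (SE 0.28, adjusted p = 0.00172) in wild type, -1.79 without that library, and -1.60 (SE 0.12, adjusted p = 1.28e-07) in hs754-humanized samples.

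**Figure D2:**
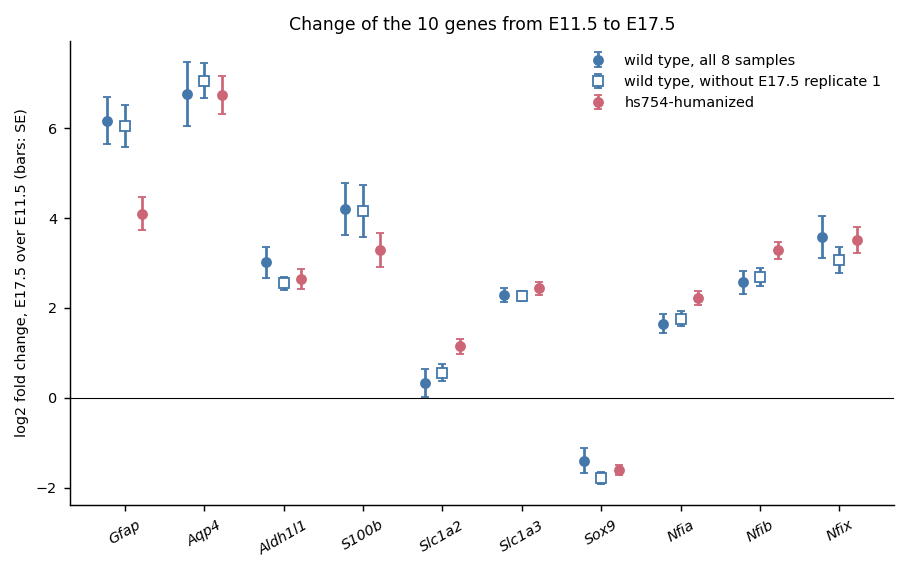
The log2 fold change of each gene from E11.5 to E17.5 with its standard error, for wild type, for wild type without E17.5 replicate 1, and for hs754-humanized samples. Sox9 lies below 0 in all 3 fits and the other 9 genes lie above 0, with Slc1a2 nearest to 0.

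The 3 NFI members all rose, by different amounts. Nfia had 29.95, 18.01, 25.7 and 21.1 CPM in the wild type E11.5 samples and 56.0, 88.1, 77.0 and 79.1 CPM at E17.5. The values of hs754-humanized samples were 22.4, 19.5, 13.1 and 19.5 CPM at E11.5 and 85.1, 99.8, 87.6 and 78.2 CPM at E17.5. The stages did not overlap, and wild type replicate 1 was the lowest at E17.5. Nfia changed by a log2 value of 1.65 (SE 0.22, adjusted p = 0.000109) in wild type, 1.76 without that library, and 2.22 (SE 0.16, adjusted p = 1.22e-07) in hs754-humanized samples.

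Nfib had 33.3, 20.9, 33.7 and 27.1 CPM in wild type at E11.5 and 124, 246, 159 and 159 CPM at E17.5. The hs754-humanized samples had 20.9, 21.5, 18.1 and 29.6 CPM at E11.5 and 242, 267, 185 and 191 CPM at E17.5. The stages were again apart in both genotypes. Its log2 fold change was 2.57 (SE 0.26, adjusted p = 1.63e-05) in wild type, 2.69 without replicate 1 at E17.5, and 3.28 (SE 0.19, adjusted p = 2.18e-08) in hs754-humanized samples.

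Nfix had 16.8, 11.1, 6.26 and 5.67 CPM in wild type at E11.5 and 225, 86.0, 82.8 and 84.5 CPM at E17.5. In hs754-humanized samples it had 9.24, 10.7, 3.05 and 6.92 CPM at E11.5 and 100.6, 79.4, 88.8 and 75.3 CPM at E17.5. The 225 CPM of wild type replicate 1 stood far above the other 7 E17.5 samples, which lay between 75.3 and 100.6 CPM. The log2 fold change was 3.58 (SE 0.46, adjusted p = 8.75e-05) in wild type, 3.07 without replicate 1, and 3.51 (SE 0.29, adjusted p = 3.58e-07) in hs754-humanized samples.

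Nfic, the remaining NFI gene, had 28.5, 27.7, 21.7 and 22.9 CPM in wild type at E11.5 and 54.2, 30.8, 20.03 and 21.2 CPM at E17.5. Its stages overlapped and it was not called, with a log2 fold change of 0.32 (adjusted p = 0.399) in wild type, -0.09 without replicate 1 at E17.5, and -0.13 (adjusted p = 0.339) in hs754-humanized samples. The makeup of the family by RNA per length therefore shifted. In wild type, Nfic made up 37.0% ± 5.0 of the summed NFI RPKM at E11.5 and 9.89% ± 2.77 at E17.5 (SD, n = 4), while Nfix went from 13.6% ± 5.1 to 36.5% ± 13.6. Nfib went from 26.3% ± 4.9 to 36.3% ± 11.52, and Nfia from 23.1% ± 3.0 to 17.3% ± 5.2. The summed level went from 10.3 to 45.8 RPKM. In hs754-humanized samples Nfic went from 44.7% to 8.09%, Nfix from 11.51% to 27.5% and Nfib from 23.3% to 45.05%. Nfib made up the largest mean share there at E17.5. In wild type the near equal means of Nfib and Nfix rested on replicate 1, where Nfix was 56.4% and Nfib 19.9% of the sum. In the other 3 samples Nfib, with 38.9% to 46.9%, lay above Nfix, with 25.5% to 32.1%, and their means were 41.8% and 29.8% (n = 3), with Nfia at 19.8% and Nfic at 8.54%.

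**Figure D3:**
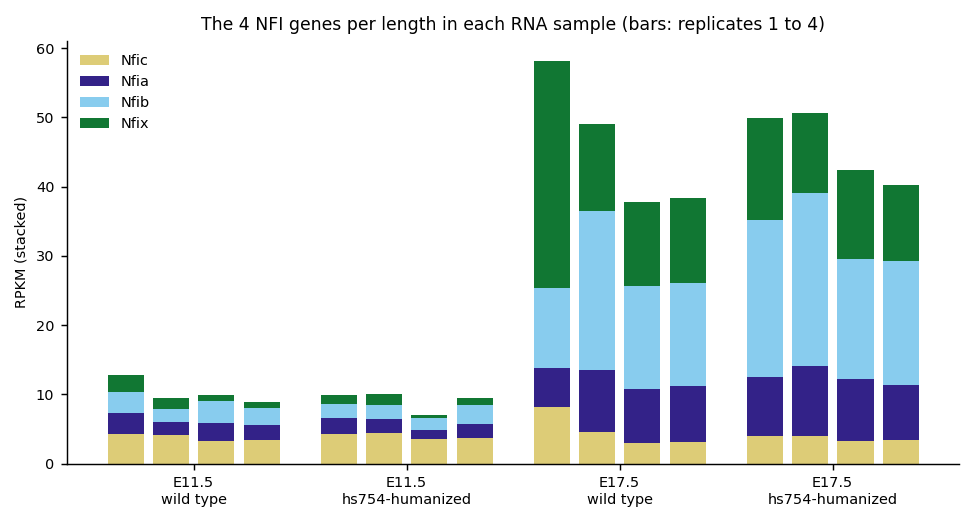
RPKM of the 4 NFI genes stacked for each RNA sample, in replicate order within each group. The stacks are 7.01 to 12.8 RPKM high at E11.5 and 37.8 to 58.2 RPKM at E17.5, Nfic shrinks as a share, and the Nfix block of the first wild type E17.5 sample is the tallest.

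The order of the 10 genes by level also changed. At E11.5 in wild type, Sox9 stood highest with 36.9 ± 2.96 RPKM (SD, n = 4), followed by Slc1a2 with 18.7 ± 5.02 and Slc1a3 with 4.43 ± 0.22, and the ranges of these 3 did not touch. Nfib with 2.69, Nfia with 2.39 and Nfix with 1.45 RPKM came next with overlapping ranges, then Aldh1l1 with 0.784 RPKM, and S100b, Aqp4 and Gfap were each under 0.1 RPKM. At E17.5 in wild type, Slc1a2 with 23.7 ± 8.49, Slc1a3 with 21.7 ± 1.68, Nfix with 17.4 ± 10.3, Nfib with 16.1 ± 4.85 and Sox9 with 14.1 ± 6.60 RPKM overlapped neighbour by neighbour. Nfia followed with 7.57, Aldh1l1 with 6.40, Aqp4 with 3.78, Gfap with 1.27 and S100b with 0.965 RPKM. Each of these last 5 overlapped the next. Without replicate 1 the order was another and fewer ranges touched. Slc1a2 with 27.8 RPKM (n = 3) was then apart from Slc1a3 with 21.6, and Nfib with 17.6 stood apart above Nfix with 12.3, which overlapped Sox9 with 10.8. Nfia with 8.21 RPKM was apart from its neighbours on both sides, Aqp4 with 4.68 overlapped Aldh1l1 with 4.64, and both were apart from Gfap with 1.17 and S100b with 0.938 RPKM. In hs754-humanized samples at E17.5, Slc1a2 led with 29.2 ± 2.01 RPKM, apart from Slc1a3 with 21.8 ± 3.83, and Gfap was lowest with 0.678 ± 0.155 RPKM, a range that overlapped that of S100b.

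The second comparison was of genotype, hs754-humanized against wild type, at each stage on its own. None of the members was called, and none of all genes was called either (0.0% of the 17816 genes tested at the first stage and 0.0% of 18763 at the second). Without adjustment, 1058 genes of the earlier stage and 207 of the later had a p under 0.05, and DESeq2 called 2 and 1 genes. The values of the genotypes overlapped for every member at both stages. Over all genes, 1.51% lay wholly higher and 0.993% wholly lower in hs754-humanized samples at the earlier stage, and 0.519% and 0.761% did so at the later one. At E11.5, 7 members had enough counts for the test, and Slc1a2 alone had an unadjusted p under 0.05 (log2 fold change -0.54, SE 0.22, edgeR adjusted p = 0.577). The values of the others ran from -0.43 for Nfix to -0.02 for Sox9. At E17.5 all 10 were tested, and Gfap alone had an unadjusted p under 0.05 (log2 fold change -0.92, SE 0.27, edgeR adjusted p = 0.808). Its range was 4.22 to 8.14 CPM in wild type and 2.64 to 4.24 CPM in hs754-humanized samples. The others ran from -0.56 for Aldh1l1 to 0.36 for Nfib. Without wild type replicate 1, the values were -0.80 for Gfap, -0.09 for Aldh1l1, 0.02 for Nfix and 0.23 for Nfib. Slc1a3 had the value nearest to 0 at E17.5, -0.01 with an SE of 0.18. At E17.5 the deviations of same-numbered samples correlated by 0.110 to 0.635, but those of samples with unlike numbers reached 0.356. A pairing by number was therefore not settled. As a description, the genotypes were also set side by side within the 4 same-numbered pairs. Gfap and Aldh1l1 were lower and Slc1a2 and Nfib were higher in hs754-humanized samples in all 4 pairs, where 11.1% of 20234 genes were lower and 10.5% higher in all 4. With the pair as a block, Gfap had -0.90 (SE 0.23), Aldh1l1 -0.44 (SE 0.20), Slc1a2 0.38 (SE 0.24) and Nfib 0.38 (SE 0.18), each with an edgeR adjusted p of 0.599.

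Whether the stage change itself differed between genotypes was tested as an interaction over all 16 samples. No gene of 20234 was called (0.0%), 1610 had an unadjusted p under 0.05, and DESeq2 called 0. Given as the log2 stage change of hs754-humanized samples minus that of wild type, Gfap had -2.06 (SE 0.72), Nfib 0.71 (SE 0.31), Slc1a2 0.81 (SE 0.37) and Nfia 0.57 (SE 0.27). These 4 had an unadjusted p under 0.05 and an edgeR adjusted p of 0.462, so the different stage values of the genotypes printed above did not pass the test of their difference. The Gfap value includes an E11.5 contrast of 7 counts in wild type with 17 in hs754-humanized samples, summed over the group. These were too few to be tested at that stage, so the Gfap interaction is given as description. Without wild type E17.5 replicate 1, the values were -1.94 for Gfap, 0.59 for Nfib, 0.58 for Slc1a2 and 0.45 for Nfia, with an adjusted p of 0.783.

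The other genes of the pathway gave the setting. Of 20 other astrocyte genes, 17 rose, 1 fell and 2 were not called in wild type, with a median log2 fold change of 2.85 beside -0.01 for all genes. Without wild type E17.5 replicate 1, 17 rose and 2 fell, with a median of 2.62. In hs754-humanized samples 16 rose and 2 fell, with a median of 2.62. Hepacam and Ntsr2 had too few counts at E11.5 to be tested there and entered only through their E17.5 counts, so their place among the called genes was set by the filter. Hepacam, an adhesion protein of astrocytes, went from 11 counts over the wild type E11.5 samples to 3076 at E17.5, 260 times as many per library size. Ntsr2, the low-affinity neurotensin receptor, had 0 counts in all 8 E11.5 libraries and 24 to 58 counts per wild type library at E17.5. Set against a floor of 3 counts over the group, it was at least 45.5-fold higher in wild type and at least 25.0-fold higher in hs754-humanized samples. At this bound it still lay above the median of the list, which stayed as given. Slc6a11, a GABA transporter, rose by 6.77 and Aldoc, a glycolytic enzyme, by 5.71 on the log2 scale. Fgfr3, a growth factor receptor of progenitors and astrocytes, fell by 2.33, and Gja1 and Glul were not called at -0.03 and -0.02. Without replicate 1, Glul, the glutamine synthetase, was called at -0.33 (adjusted p = 0.0243).

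Of 23 genes of gliogenic signalling, 21 were tested, and 2 rose, 12 fell and 7 were not called in wild type, with a median log2 fold change of -0.77. In hs754-humanized samples 3 rose and 15 fell, with a median of -1.22. Without wild type E17.5 replicate 1, 4 rose and 14 fell, with a median of -1.06, and the calls that differed were those of Lifr, Smad1, Socs3 and Id1. The 4 called genes with the largest change all fell. Hes5, a target of Notch, fell by 3.10, the ligand Dll1 by 2.89 and the receptor Notch1 by 2.69 on the log2 scale, and Id3, a target of BMP signals, fell by 2.29. On the cytokine side, the kinase Jak1 rose by 1.12 and Stat3 by 0.66 (0.39 without that library), and the ligands Lif and Cntf had too few counts for the test. Of 8 other gliogenic transcription factors, 3 rose and 4 fell in wild type, with a median of -0.59. Sox8, a relative of Sox9, rose by 3.47 and Klf15 by 1.63, while Pou3f2 fell by 2.24 and Tal1 by 1.87. The 10 radial glia genes split into 5 that rose and 5 that fell, with a median of 0.37, and no call in these last 2 lists differed without that library. Hopx, which entered only through its E17.5 counts, had a value of 4.41. Tnc, an extracellular matrix protein, rose by 3.49 on the log2 scale, and Nes, the intermediate filament of progenitors, fell by 4.10 and Prom1 by 3.05.

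Markers of other cells moved with stage as well. All 8 cycling cell genes fell in wild type, and their summed level went from 1769 to 2106 CPM in the E11.5 samples of both genotypes to 162 to 212 CPM at E17.5. Of 8 neuronal genes 7 rose, with a summed level of 1302 to 2093 CPM at E11.5 and 5602 to 6996 CPM at E17.5. Of 8 genes of the oligodendrocyte lineage 7 rose, Sox10 among them only through its E17.5 counts, and 1 was not called, 122 to 168 CPM and 253 to 327 CPM in sum. Of 6 ependymal genes 4 were tested and were higher at E17.5, and 2 of these entered only through their E17.5 counts, as did Ttr below and 1 of the eye and pituitary genes. Of 7 microglia genes 2 rose and 1 fell, and of 7 endothelial and pericyte genes 2 rose. Of 6 choroid plexus genes 2 rose and 1 fell, with Ttr going from at most 3.74 CPM to 93.1 to 476 CPM, and of 6 meningeal genes 2 rose and 4 fell. Of 6 red blood cell genes 1 rose and 2 fell, of 10 diencephalon genes 2 rose and 5 fell, and of the 4 telencephalon genes reported here 3 were called higher and 1 lower. These 4, Bcl11b, Emx1, Tbr1 and Lhx8, summed to 21.96 to 32.6 CPM at E11.5 and to 73.2 to 104.7 CPM at E17.5, and Lhx8 entered only through its E17.5 counts and Emx1 only through its E11.5 counts. Of 6 midbrain and hindbrain genes 3 were tested and 0 called, and of 6 eye and pituitary genes 2 were tested and both rose. Ttr was at 0 in some E11.5 samples. Without wild type E17.5 replicate 1, 3 endothelial and pericyte genes and 4 red blood cell genes fell, where 0 and 2 did with it. The part of these cells in the values of the 10 members was not tested.

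Between samples of the same group, the members did not all move together. For each gene, the log2(CPM + 1) value of a sample was taken relative to the mean of its group and correlated over the 16 samples with 14826 other protein-coding genes. All genes of a sample share its library depth and any shift with base composition, so these correlations are a description. The genes most like Gfap were Serpina3n with a Pearson r of 0.887, Adcy8 with 0.840, Smyd1 with 0.823, Agt with 0.817 and Hs2st1 with 0.806. Serpina3n is a serine protease inhibitor and Agt is angiotensinogen, both known from astrocytes. Without wild type E17.5 replicate 1, the r of Serpina3n with Gfap was 0.885 and the highest of all genes, Agt had 0.773, and Aqp4 went from 0.0795 to 0.805. The genes most like Nfia were Nol4 with 0.928, Gpr85 with 0.920, Zc3h6 with 0.911, Prkg2 with 0.905 and Scarb2 with 0.901. Nfib had 0.751 with Nfia, and without that library Nol4 had 0.904 and Nfib 0.683.

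The chromatin of the members was read from the peak lists of wild type. H3K27ac, the acetylation of histone H3 at lysine 27, marks active promoters and enhancers, H3K4me3 marks active or poised promoters, H3K27me3 is the mark of Polycomb repression, and CTCF is a DNA-binding protein of chromatin loops. Peaks were called per sample against its input, and a gene had a promoter peak when a peak overlapped by at least 1 bp the 1 kb on either side of an annotated protein-coding transcript start. Values are the fold enrichment over background that the authors' caller gave. H3K27ac promoter peaks were present in every E11.5 list for 5 of the 10 genes and in every E17.5 list for 8, where 49.3% and 59.0% of all 21440 protein-coding genes had them. H3K4me3 was present for 7 and then 8 genes, where 65.2% and 65.3% of all genes had it. H3K27me3 was present for 6 and then 8 genes, where 21.1% and 21.2% of all genes had it. The H3K27me3 lists were longer at E17.5, with 27452 to 43700 peaks against 13850 and 19166. CTCF, measured only at E17.5, was present for 3 genes, Aldh1l1, Slc1a2 and Nfix, where 37.3% of all genes had it. A comparison of 2 lists with 3 cannot go below p = 0.1 in a two-sided Fisher's exact test, so no difference in presence could pass. These counts moved with the start used. At the 5′ end of the gene alone they were 5 for H3K27ac at E17.5, 4 and 5 for H3K4me3 and 3 and 5 for H3K27me3, and H3K27me3 at E11.5 was also 3 with a -log10 q of at least 5 or an overlap of at least 50%.

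**Figure D4:**
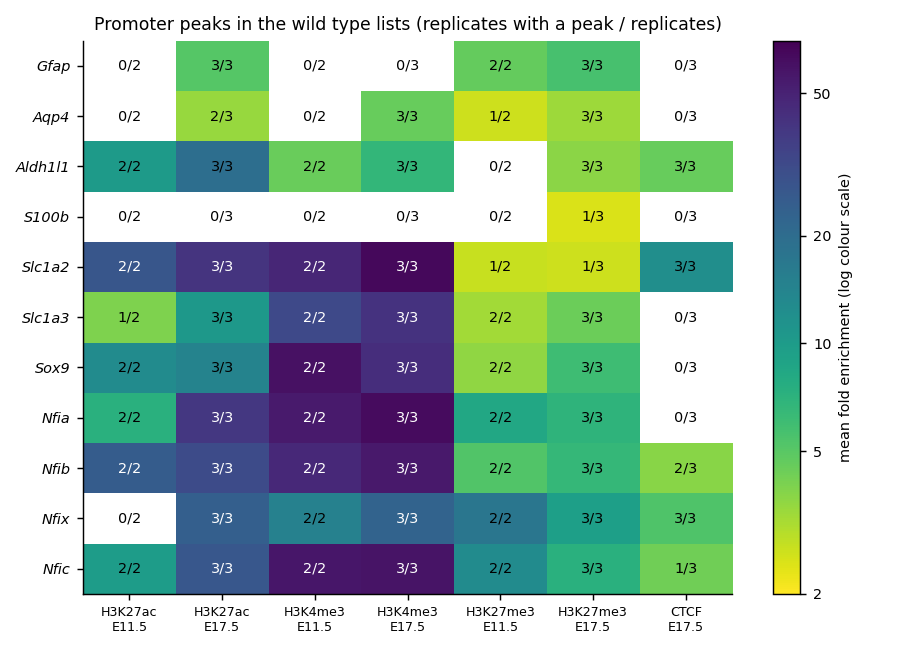
Promoter peaks of the 10 genes in the wild type lists, as mean fold enrichment (log colour scale) with the number of lists that have a peak, for each mark and stage. Nfia, Nfib, Nfix and Sox9 carry H3K4me3 and H3K27me3 at both stages, as does Slc1a3, and S100b has a single peak, of H3K27me3.

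The number of CpG dinucleotides, the sites at which DNA can be methylated, set the members apart in sequence. All 11 genes with Nfic were matched to a canonical transcript start, and the reference genome (GRCm39) gave the 250 bases before it on the strand of the gene. Over 21405 promoters, the median was 8 CpGs, with 1 at the 10th and 23 at the 90th percentile. S100b and Aqp4 had 1, Gfap and Slc1a3 had 2, Nfix 7, Slc1a2 8, Aldh1l1 9, Nfib 11, Sox9 13 and Nfia 32. Of promoters with 0 to 2 CpGs, 13.6% had H3K4me3 in every E17.5 list, against 96.9% of those with 11 to 20 CpGs and 98.1% of those with 21 or more. The CpGs were counted before the canonical start, while the peak could lie at any protein-coding start of the gene. Gfap and S100b had no H3K4me3 peak in any list, Aqp4 had a weak one at E17.5, and Slc1a3, with as few CpGs as Gfap, had a strong one at both stages, also at its canonical start. The promoters of Gfap (chr11:102788186-102788435, minus strand), S100b (chr10:76089234-76089483, plus strand), Slc1a3 (chr15:8740277-8740526, minus strand), Sox9 (chr11:112672759-112673008, plus strand) and Nfia (chr4:97665558-97665807, plus strand) are shown, the first 3 for their few CpGs and the others for their many, 5′ to 3′ and ending at the base before the start, with each CpG in capitals.
Gfap: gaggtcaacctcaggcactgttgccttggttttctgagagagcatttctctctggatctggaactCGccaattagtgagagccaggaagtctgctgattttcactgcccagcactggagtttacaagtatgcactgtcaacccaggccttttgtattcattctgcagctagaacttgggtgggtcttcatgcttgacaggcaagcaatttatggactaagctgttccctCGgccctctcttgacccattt
S100b: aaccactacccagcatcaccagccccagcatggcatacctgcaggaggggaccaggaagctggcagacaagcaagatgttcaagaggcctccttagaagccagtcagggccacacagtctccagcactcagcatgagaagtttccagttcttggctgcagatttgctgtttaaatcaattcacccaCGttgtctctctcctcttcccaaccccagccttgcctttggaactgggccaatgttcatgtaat
Slc1a3: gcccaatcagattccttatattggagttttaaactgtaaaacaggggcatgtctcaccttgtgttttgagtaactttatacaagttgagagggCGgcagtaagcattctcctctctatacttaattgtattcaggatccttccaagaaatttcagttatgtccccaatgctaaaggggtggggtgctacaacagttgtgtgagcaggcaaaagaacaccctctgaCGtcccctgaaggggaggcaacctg
Sox9: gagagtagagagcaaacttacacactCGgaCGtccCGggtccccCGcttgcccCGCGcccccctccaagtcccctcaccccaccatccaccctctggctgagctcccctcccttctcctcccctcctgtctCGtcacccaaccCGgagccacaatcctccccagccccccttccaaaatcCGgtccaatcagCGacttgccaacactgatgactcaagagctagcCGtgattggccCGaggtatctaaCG
Nfia: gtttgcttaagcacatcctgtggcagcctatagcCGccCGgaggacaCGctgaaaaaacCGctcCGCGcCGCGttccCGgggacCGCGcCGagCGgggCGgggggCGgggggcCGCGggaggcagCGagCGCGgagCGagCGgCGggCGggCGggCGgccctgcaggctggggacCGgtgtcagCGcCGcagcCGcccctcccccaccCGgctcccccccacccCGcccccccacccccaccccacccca

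Letters known as binding sites of these factors were searched on both strands of these windows. The full NFI palindrome TGGCNNNNNGCCA was in none of the 11 promoters and in 0.663% of all 21405. The shorter NFI site TTGGC was in 5 of the 11, the promoters of Gfap, Aqp4, S100b, Slc1a2 and Sox9, and in 43.4% of all, so the members' share was near that of all promoters. The STAT letters TTCNNNGAA were in Slc1a3 and Nfic, and in 7.75% of all, and the SOX letters AACAAT were in Nfib, and in 9.58% of all. Both NFI sites hold the letters TGGC. Such a match is a description of letters in this window.

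At the mature astrocyte genes, the promoter marks differed from gene to gene. Gfap had no H3K27ac promoter peak in either E11.5 list and 1 in each E17.5 list, with a fold enrichment of 5.12 ± 0.41 (SD, n = 3), a pattern found at 7.6% of all genes, where 0.592% had the reverse and no member did. In hs754-humanized samples, 1 of the 3 E17.5 lists had it. Gfap also carried H3K27me3 in every list, 4.67 ± 2.56 at E11.5 (n = 2) and 5.63 ± 0.49 at E17.5. Aqp4 had H3K4me3 in no E11.5 list and in every E17.5 list with 4.57 ± 0.41, a pattern found at 0.644% of all genes. Its H3K27ac was in no E11.5 list and in 2 of 3 E17.5 lists. The H3K27me3 of Aqp4 was in 1 of 2 E11.5 lists with 2.62 and in every E17.5 list with 3.38 ± 0.15. In hs754-humanized samples the H3K27ac of Aqp4 went the other way, with a peak in 2 of 2 E11.5 lists (3.88 ± 0.21) and in 1 of 3 E17.5 lists. Its H3K27me3 there was in no E11.5 list and in every E17.5 list with 3.22 ± 0.20. S100b had no promoter peak apart from H3K27me3 in 1 of 3 E17.5 lists. Aldh1l1 had H3K27ac at 10.2 ± 3.91 and then 19.4 ± 3.88, and H3K27me3 in no E11.5 list and in every E17.5 list with 3.73 ± 0.54, a pattern found at 2.71% of all genes. The reverse H3K27me3 pattern was found at 1.63%, and the E17.5 lists of this mark were longer. At the canonical start of Aldh1l1 alone, the E11.5 H3K27ac peak and the CTCF peak were not in every list.

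Slc1a2 had strong marks at both stages, H3K27ac at 26.96 ± 0.72 and 40.8 ± 1.44 and H3K4me3 at 47.8 ± 0.41 and 65.3 ± 7.07, and its CTCF peak had a fold enrichment of 12.1 ± 3.36. Slc1a3 had H3K27ac in 1 of 2 E11.5 lists with 3.98 and in every E17.5 list with 10.5 ± 2.32, on an H3K4me3 peak of 31.8 ± 3.15 and then 41.5 ± 7.69. The transporter whose RNA was already high at E11.5 thus had the H3K27ac peak in both E11.5 lists, and the other had it in 1.

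Sox9, whose RNA fell, had H3K4me3 of 59.0 and 59.6 in the E11.5 lists and 38.6 to 49.3 in the E17.5 lists, which did not overlap. H3K27me3 was 3.61 ± 0.36 and then 6.06 ± 0.82 without overlap, and H3K27ac was 12.6 ± 1.12 and 14.3 ± 1.97 with overlapping values. Fold enrichments depend on the depth and background of each list, so each ratio of E17.5 to E11.5 is set beside those of all promoters with a peak in every list of the mark. For H3K27ac their median ratio was 2.04, with 1.12 and 3.71 at the 10th and 90th percentiles, for H3K4me3 it was 1.14 (0.857 and 1.71), and for H3K27me3 0.855 (0.545 and 1.48). Sox9 had a ratio of 0.742 for H3K4me3, at percentile 3.98, of 1.68 for H3K27me3, at percentile 93.6, and of 1.13 for H3K27ac, at percentile 10.2. For H3K27ac, Aldh1l1 had 1.91 (percentile 44.4), Slc1a2 1.51 (25.4) and Nfib 1.25 (14.2), each below the median ratio. For H3K4me3, Nfix had 1.53 (percentile 84.3), Aldh1l1 1.48 (81.6), Slc1a2 1.37 (75.0), Slc1a3 1.30 (69.5) and Nfib 1.18 (55.9), above the median. For H3K27me3, Slc1a3 had 1.36 (percentile 86.1), Nfib 1.25 (81.8) and Gfap 1.21 (79.8), above the median, and Nfia 0.841 (47.9), below it.

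The 3 NFI genes carried H3K4me3 and H3K27me3 at both stages, and their H3K27ac differed. Nfic, whose RNA did not pass the stage test, carried H3K27ac, H3K4me3 and H3K27me3 in every wild type list too. Its H3K27ac was 9.86 and then 26.6, a ratio of 2.69 at percentile 73.1 of all promoters. The H3K4me3 of Nfic was 56.2 and 58.0, and its H3K27me3 was 12.6 and 7.32, a ratio of 0.580 at percentile 13.3. Nfia went from an H3K27ac fold enrichment of 7.28 ± 0.86 to 39.4 ± 1.52, a ratio of 5.41 at percentile 97.5 of all promoters. In hs754-humanized samples it went from 10.2 ± 1.90 to 30.3 ± 9.24. Its H3K4me3 was 53.9 and then 63.0, a ratio of 1.17 near the median of all promoters. Nfib already had a strong H3K27ac peak at E11.5, 24.9 ± 4.80, and had 31.1 ± 5.21 at E17.5, but its width went from 2940 to 3360 bp at E11.5 to 21162 to 21700 bp at E17.5. Its H3K4me3 peak likewise widened from 6928 to 7231 bp to 16360 to 19277 bp. These widths did not overlap between stages. Nor did the median peak widths of the whole H3K27ac lists, 538 and 545 bp at E11.5 and 644 to 672 bp at E17.5. For H3K4me3 the medians were 1265 and 1339 bp and then 1414 to 1463 bp. The share of all promoters whose widths lay apart was not counted.

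Nfix had no H3K27ac promoter peak at E11.5 and 1 in every E17.5 list, 23.8 ± 3.78 and 11692 to 16989 bp wide. Its H3K4me3 went from 14.7 ± 3.20 to 22.5 ± 3.85, and the E11.5 peak lay at another start than the canonical one. At E11.5 it lay in the broadest H3K27me3 peak of the members, 78572 to 81652 bp wide with a fold enrichment of 17.3 ± 1.86. At E17.5 the peak was 47443 to 77211 bp wide with 9.45 ± 0.55, and the ratio of 0.547 lay at percentile 10.1 of all promoters. In hs754-humanized samples the H3K27me3 values were 21.01 ± 3.93 and 8.73 ± 0.999. H3K27ac and H3K27me3 peaks over the same promoter at E17.5 came from pools of whole tissue, so 1 cell type with both marks cannot be told apart from different cells with each.

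H3K27ac was also counted over each gene and 20 kb on either side, after merging the peaks of the 5 wild type lists into sites. Sites in every E17.5 list and no E11.5 list numbered 23 of 56 at Nfia, 18 of 46 at Nfib and 14 of 37 at Nfix, and 0 sites were in every E11.5 list alone. Aldh1l1 had 9 of 21, Slc1a3 5 of 10, Slc1a2 4 of 11 and Gfap 2 of 6 such sites, and S100b had 0 of 3. Nfic had 4 of 24. Over the genome, 25.3% of 98876 sites were of this kind and 3.65% were in every E11.5 list alone. The E17.5 lists were longer, with 62720 to 77419 peaks against 32418 and 36150. When every list was cut to its 32418 peaks with the highest -log10 q, 8895 and 5618 of 52271 sites were of these kinds, so the genome share itself moved with the length of the lists. In these cut lists, sites in every E17.5 list alone numbered 9 of 30 at Nfia, 5 of 19 at Nfib and 9 of 20 at Nfix. Aldh1l1 then had 4 of 11, Slc1a3 2 of 7, Gfap 1 of 4 and Nfic 2 of 11. Slc1a2 had 0 of 7, Sox9 0 of 4, Aqp4 0 of 2 and S100b 0 of 1. Sites in every E11.5 list alone were then 2 at Nfia and 1 each at Gfap, Aqp4 and Sox9. In the uncut lists, Sox9 had 1 site in every E17.5 list alone and 1 in every E11.5 list alone among 5. Gfap too had 1 in every E11.5 list alone there.

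**Figure D5:**
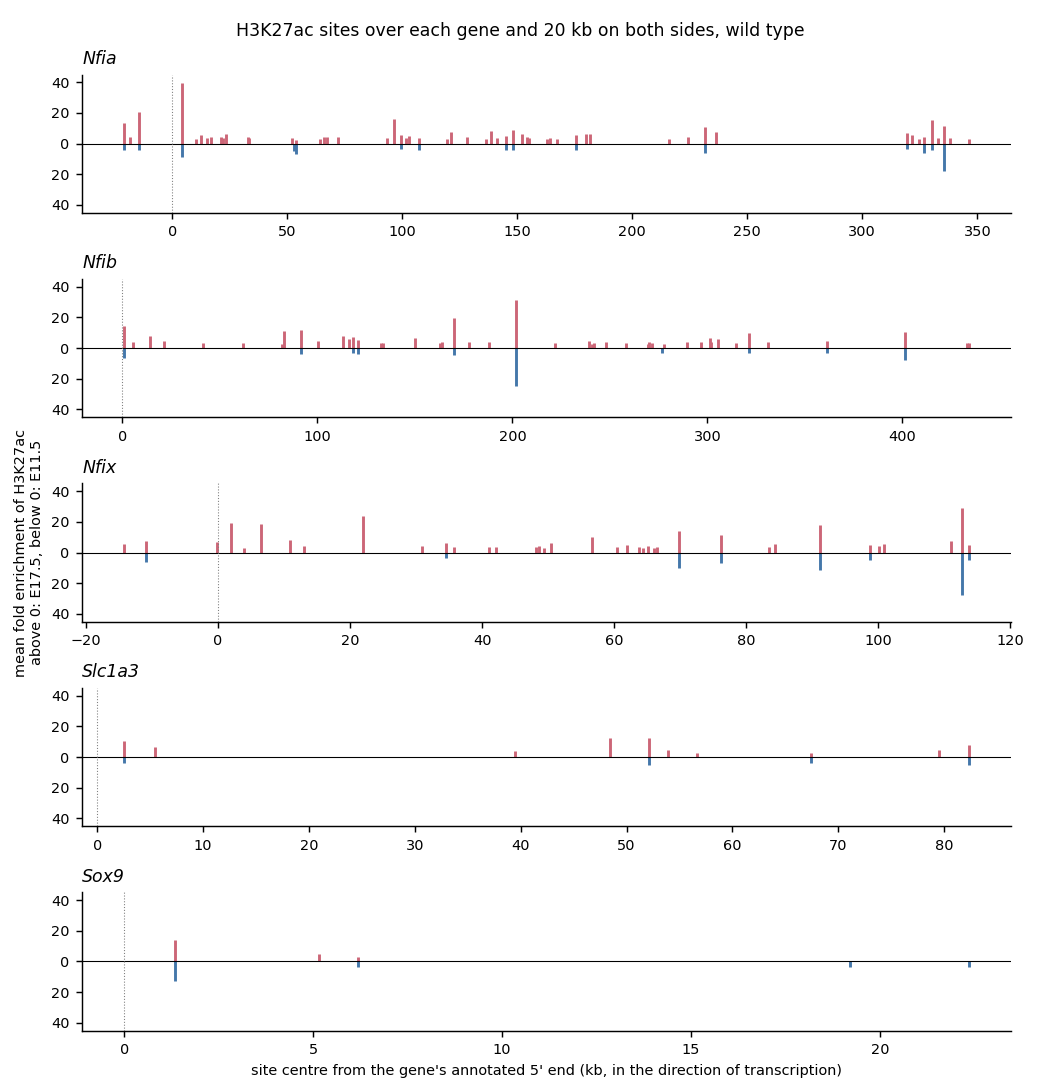
H3K27ac sites in wild type over Nfia, Nfib, Nfix, Slc1a3 and Sox9 and 20 kb on either side, each as a line at its distance from the annotated 5′ end of the gene (kb), with the mean fold enrichment at E17.5 upward and at E11.5 downward. Nfia, Nfib and Nfix have 23, 18 and 14 sites that are in every E17.5 list and no E11.5 list, which are among the lines that go upward alone.

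The length covered by H3K27ac peaks at Nfix went from 8144 to 11453 bp in the E11.5 lists to 65258 to 69125 bp in the E17.5 lists, of a window of 140542 bp. At Nfia it went from 12085 to 15000 bp to 57257 to 66557 bp of 386141 bp, and at Nfib from 12365 to 14486 bp to 62204 to 70549 bp of 455578 bp. At Nfic it went from 6556 to 7579 bp to 17981 to 23177 bp of 99450 bp. The hs754-humanized lists at E17.5 covered 39425 to 65986 bp at Nfix and 33583 to 57647 bp at Nfia, and their H3K27ac lists were shorter too, with 47132 to 65181 peaks. Neither genotype overlapped between stages in this length at the 3 NFI members or at Nfic. The same held for the whole H3K27ac lists, which covered 26.7 to 30.5 Mb at E11.5 and 65.5 to 79.7 Mb at E17.5 in wild type, and 29.6 to 30.4 Mb and 44.4 to 67.1 Mb in hs754-humanized samples.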

How the data were processed

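The authors aligned RNA reads to mm39 with STAR 2.7.9a and GENCODE release 31 and deposited the raw count of reads per gene, without strand and per strand. Rows that name no gene (48.1% to 58.4% of a sample's reads) were left out. ChIP reads were aligned with Bowtie2 2.4.2, and peaks were called per sample with MACS2 2.2.7.1. The deposited lists give each peak's fold enrichment, its -log10 p-value and -log10 q-value, and a score in whole numbers that was not used. The paper does not describe the H3K27me3 lists, which have the broad form. It states that the lot of H3K27ac antibody also binds another histone acetylation. Input samples were not analysed here.

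Counts were filtered (filterByExpr), scaled by TMM and tested with edgeR 4.0.16 (R 4.3.3) and Benjamini-Hochberg adjustment over all genes tested. DESeq2 1.42.0, DESeq2 size factors, no filter, the strand column, a replicate block and leaving out each sample were alternatives. The promoter count at the canonical transcript start, the counts of S100b per strand and the gene lists without wild type E17.5 replicate 1 were added after seeing the data. CPM values are relative to TMM-scaled library sizes. Gene names and positions came from GENCODE M39, which held 56236 of the 56923 identifiers. Peaks were compared in Python 3.11.15. The edgeR and DESeq2 code was first tested on simulated counts.

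At E17.5, same-numbered samples of the genotypes had correlations of 0.110 to 0.635. Pairs 1 and 2, with 0.572 and 0.635, lay above all pairs of unlike number, whose highest was 0.356. Pairs 3 and 4, with 0.110 and 0.268, did not. Whether the number pairs the samples there was thus not settled, and the paired values stand beside the unpaired ones. Members and gene lists were chosen with earlier results of these data known. The text names all 10 members, Nfic, up to 4 called genes of each glial list by size of the wild type stage change, and the 5 genes most correlated with Gfap and with Nfia. Other genes named were picked after their values were seen. 1 gene of a marker list is not reported here. The p-values measure the spread between litters.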

Additional observations from a re-analysis of the deposited data

Results flagged for a closer look

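A sample far from the others of its group was looked for in the 10 genes and 4 RNA groups, 40 groups of 4 samples in all. In 2 of them the gap of the extreme sample passed Dixon's 95% critical value, and chance alone gives about 1 in 20, so 2 of 40. Nfix stood at 225 CPM in wild type E17.5 replicate 1, with a gap of 0.978 of the range of the group. Slc1a3 stood at 47.0 CPM in wild type E11.5 replicate 1, below the other 3 samples at 51.7 to 52.1 CPM, with a gap of 0.913 of the range.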

How the results depend on the processing

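Among the fold changes of single members recomputed under the alternatives, 658 kept their direction and their side of the threshold, 1 came past the threshold (Slc1a2 in wild type without E17.5 replicate 1, 0.56), and 32 changed sign, none of them a called change. Of the counts of genes, 136 stayed within 1.5 times and 8 did not. At the gene's 5′ end only, the members with a promoter peak in every list were 5 for H3K27ac at E17.5, 4 and 5 for H3K4me3 at E11.5 and E17.5, and 3 and 5 for H3K27me3. H3K27me3 at E11.5 gave 3 with a -log10 q of at least 5 and 3 with an overlap of at least 50%, and CTCF gave 5 within 2 kb. These starts, peaks or windows differ by construction.

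Signs changed for the genotype effect at E17.5 of Slc1a3 with DESeq2 size factors (0.0157) and the strand column (0.0121), for the interaction of Aqp4 with DESeq2 (0.0607), DESeq2 size factors (0.0205) and the strand column (0.0234), and of Nfix with the strand column (0.0130). Leaving out 1 sample gave log2 ranges of -0.0533 to 0.0375 for Sox9 at E11.5, and at E17.5 of -0.13 to 0.52 for Aqp4, -0.10 to 0.11 for Slc1a3, -0.34 to 0.18 for Sox9 and -0.617 to 0.0204 for Nfix. The interaction ranged from -0.44 to 0.66 for Aqp4, -0.43 to 0.44 for Nfix, -0.552 to 0.0862 for Aldh1l1 and -0.36 to 0.18 for Sox9. The cause was not tested.

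With the replicate number as a block, 9 members were called in the wild type stage comparison, and 9466 genes beside 10356 without it. The block changed no call of a member, and turned the interactions of Aqp4 (0.180) and Nfix (0.0293). The numbers did not pair samples across stages or at E11.5 by their correlations, which ran from -0.602 to 0.450 in wild type across stages, -0.277 to 0.413 in hs754-humanized samples and 0.031 to 0.214 between genotypes at E11.5.

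Depth limited Gfap, Aqp4 and S100b at E11.5, which had at most 12 counts per library, so a genotype difference there was not detectable at this depth. Peak lists give no read depth, so their fold enrichments carry no counting interval.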
